A study of Mus musculus with 31 samples.

Results

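The 7 genes examined here, Ighm, Igkc, Cd79a, Cd79b, Ms4a1, Jchain and Mzb1, encode chains of the B cell antigen receptor and of secreted antibody or mark B cells and plasma cells, and they are 7 of the 46072 genes in the expression tables. They were picked by name with results of these data in view, because Ighm had the largest fall among them in RM-9 tumors 12 h after radiotherapy (RT). Values of the RM-9 12 h comparison are therefore given as a description, without a test, for these and for other genes. The other RM-9 comparisons use the same 4 control mice, so they are not independent of that choice.

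Bulk mRNA sequencing was done on 31 tumors, 1 from each of 31 mice. RM-9, a mouse prostate cancer line, and MC-38, a mouse colon cancer line, were grown under the skin of the right hind leg of male, genetically wild-type C57BL/6J mice that were 6 to 7 weeks old when purchased, and a single local dose of 15 Gy was given once tumors reached about 8 mm. RM-9 groups were untreated control (4 mice) and RT at 3 h (4), 12 h (4) and 24 h (3). MC-38 groups were untreated control and RT at the same 3 times, with 4 mice in each. Controls are labelled with the 3 h time, so the 12 h and 24 h groups have no control of their own time, and all 3 RT groups of a model share the same controls. The immune cells in these tissues came from the host, whereas the tumor cells of each model came from 1 cell line. The MC-38 and RM-9 libraries carry different run names, so the model and the run cannot be told apart.

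B cells recognise antigen through a membrane immunoglobulin of heavy and light chains that signals through the CD79A and CD79B pair. Cells that have not switched class carry IgM, encoded by Ighm, and in mice most light chains are kappa, encoded by Igkc. After activation some B cells become plasma cells, which make large amounts of immunoglobulin mRNA, much of it IgG or IgA, together with the joining chain Jchain and the endoplasmic reticulum cochaperone Mzb1, while they turn down the surface protein CD20 (Ms4a1) and the B cell identity factor Pax5.

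Each library held 21.4 to 29.4 M estimated reads. Mitochondrially encoded genes took 47.3 to 57.2% of all TPM (a transcript's share of its library, scaled for gene length) in RM-9 and 22.5 to 40.6% in MC-38. Skeletal muscle genes varied widely among the libraries. The summed TPM of 6 muscle markers (Ckm, Acta1, Myh4, Mylpf, Tnnt3 and Mb) ran from 219 to 2063 in RM-9 controls and from 2.75 to 862 at 12 h. In MC-38 it ran from 17.9 to 9830 in controls and from 5.83 to 421 at 12 h. Changes are log2 differences of TPM + 0.5 from limma, adjusted over all genes whose mean reached 0.5 TPM (14013 in RM-9 and 15698 in MC-38), and a call is an adjusted p under 0.05. Because these values are shares of a library, calls lean to one side with the scaling. In MC-38 at 12 h 91.7% of calls were higher as deposited but 39.2% after median-ratio scaling, and at 24 h these shares were 96% and 48.9%. In RM-9 at 12 h 0.853% of calls were higher as deposited and 68.4% after median-ratio scaling. The median change of all genes was 0.06, -0.19 and -0.04 in RM-9 and 0.19, 0.33 and 0.22 in MC-38 at 3, 12 and 24 h.

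The defining B cell markers looked at here, Ms4a1, Blk and Fcmr, were close to absent. Ms4a1 was above 0 in 1 of 15 RM-9 libraries and in 8 of 16 MC-38 libraries, with a highest value of 0.15 TPM or about 7.99 reads. The B cell kinase Blk and the IgM Fc receptor Fcmr were listed at 0 in every MC-38 library. The genes are therefore called by their names and not as a measure of B cell number. In bulk tissue, fewer cells of a type and less RNA per cell cannot be told apart.

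Ighm, the constant region of the IgM heavy chain, lies at chr12:113418558-113422730 on the minus strand (ENSMUSG00000076617, GRCm38, as the files give it). In RM-9 controls its TPM was 2.10, 1.28, 1.42 and 3.23. At 3 h the 4 mice had 0.837, 0.468, 0.333 and 0.787 TPM, at 12 h 0.569, 0.409, 0.636 and 0.138 TPM, and at 24 h the 3 mice had 2.22, 0.373 and 0.48 TPM. All mice of the 3 h and 12 h groups were below the lowest control, whereas at 24 h 1 mouse lay within the control range and the other two below it. Between 7.92 and 143 estimated reads stood behind each of these values. The share of all genes whose irradiated and control mice did not overlap was not counted, here or below. A lack of overlap therefore does not set a gene apart from others.

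At 3 h the RM-9 Ighm change was -1.14 (SE 0.33, 95% interval -1.86 to -0.43) on the log2 scale, and its limma adjusted p of 0.117 missed the threshold, where 0.228% of all genes tested were called. The exact two-sided permutation p over mice was 0.0286, the smallest that 4 against 4 mice allow, and 0.25 after Benjamini-Hochberg adjustment over the 35 member comparisons of this kind. At 12 h the value was -1.39, or -1.20 relative to the median gene, given without a test because it chose the genes, beside a background of 8.3% of genes called lower. At 24 h it was -0.85 (SE 0.36, limma adjusted p = 0.999), and 0.0% of genes were called there. With limma 0 of the 2 genes tested passed at either time, while 1 of 2 had an unadjusted p under 0.05 at each, and Dunnett's test gave 1 at 3 h and 0 at 24 h.

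Igkc, the kappa light chain constant region, lies at chr6:70726435-70726966 on the plus strand (ENSMUSG00000076609), inside an annotated lincRNA of the same strand with which it can share reads. RM-9 controls had 1.6, 0.394, 0.567 and 0.818 TPM. The 3 h mice had 0.0625, 0.793, 0.404 and 0.0792 TPM, the 12 h mice 0.616, 0.443, 0.341 and 0.221 TPM, and the 24 h mice 2.3, 0.96 and 0.556 TPM. The groups overlapped at every time. The log2 change was -0.70 (SE 0.33, limma adjusted p = 0.236) at 3 h, -0.51 at 12 h as a description, and 0.35 (limma adjusted p = 0.999) at 24 h. Between 1.00 and 41.5 estimated reads per library stood behind these values. The 3 h mean was below the 0.5 TPM minimum, which the control and 24 h values helped Igkc reach, so its 3 h test carries little weight.

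In RM-9 the highest Igkc values, in control mouse 1 and in RT 24 h mouse 1, came from the libraries with the highest muscle sums, 2063 and 2111 TPM. RM-9 libraries of the 3 h group had muscle sums of 24.7, 814, 2.95 and 5.66 TPM, against 2063, 1173, 219 and 948 TPM in controls. The summed TPM of 9 T cell markers was 9.26 to 16.5 in controls, 3.35 to 8.62 at 3 h and 2.76 to 7.97 at 12 h. With the muscle score as a covariate, an alternative chosen after the values were seen, the Ighm value was -0.95 at 3 h (limma adjusted p = 0.482), -1.22 at 12 h and -0.84 at 24 h, and the Igkc value was -0.37 at 3 h. The part of other leukocytes was not tested.

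MC-38 tumors held more of both transcripts, and at 12 h both fell. Ighm TPM was 7.99, 8.41, 6.99 and 17.8 in controls. The 3 h mice had 12.0, 5.6, 6.3 and 4.29 TPM, the 12 h mice 3.83, 3.87, 5.98 and 2.94 TPM, and the 24 h mice 7.6, 4.62, 6.87 and 5.69 TPM. At 12 h all 4 mice were below every control mouse, and at 24 h 3 of 4 were. Ighm fell at 12 h, with a mean of 10.3 ± 5.04 TPM over the 4 controls and 4.16 ± 1.29 TPM over the 4 irradiated mice (SD). The log2 change was -1.15 (SE 0.31, 95% interval -1.81 to -0.50, limma adjusted p = 0.0185) or -1.48 relative to the median gene. The exact two-sided permutation p was 0.0286 (0.25 after adjustment over the 35 comparisons). At 3 h and 24 h the changes of -0.52 (SE 0.31, limma adjusted p = 0.325) and -0.61 (SE 0.31, limma adjusted p = 0.188) did not pass.

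Igkc had the widest spread of the 7 genes in MC-38. Controls had 44.8, 1.74, 14.2 and 13.5 TPM, the 3 h mice 13.3, 8.36, 1.9 and 3.91 TPM, the 12 h mice 0.517, 3.21, 2.28 and 0.862 TPM, and the 24 h mice 3.31, 2.08, 22.0 and 1.17 TPM. Control mouse 2 lay inside the 12 h range, so that 2 of 4 irradiated mice were below every control. The 12 h change of -2.63 (SE 0.87, 95% interval -4.47 to -0.79) had a limma adjusted p of 0.035, whereas the exact two-sided permutation p was 0.0857. At 3 h the change had a 95% interval of -2.84 to 0.84 (limma adjusted p = 0.487), and at 24 h it was -1.45 (SE 0.87, limma adjusted p = 0.269), neither past the threshold.

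At 12 h in MC-38 limma thus called 3 of the 4 genes tested, with Ighm and Igkc lower and Cd79a higher, against 2.59% of all genes called lower and 28.5% called higher. The count rested on single libraries. It was 2 without control mouse 2 or RT 12 h mouse 3, 1 without control mouse 1, control mouse 4 or RT 12 h mouse 1, and 0 without RT 12 h mouse 2 or mouse 4, and it stayed at 3 without control mouse 3. Of the 8 fits that leave out 1 mouse, the call was lost in 6 for Igkc (changes of -3.44 to -1.99), in 5 for Cd79a (0.415 to 0.728) and in 3 for Ighm (-1.33 to -0.869). With the muscle covariate it was 0 as well, with changes of -0.97 for Ighm (limma adjusted p = 0.076) and -1.41 for Igkc (limma adjusted p = 0.158).

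**Figure D1:**
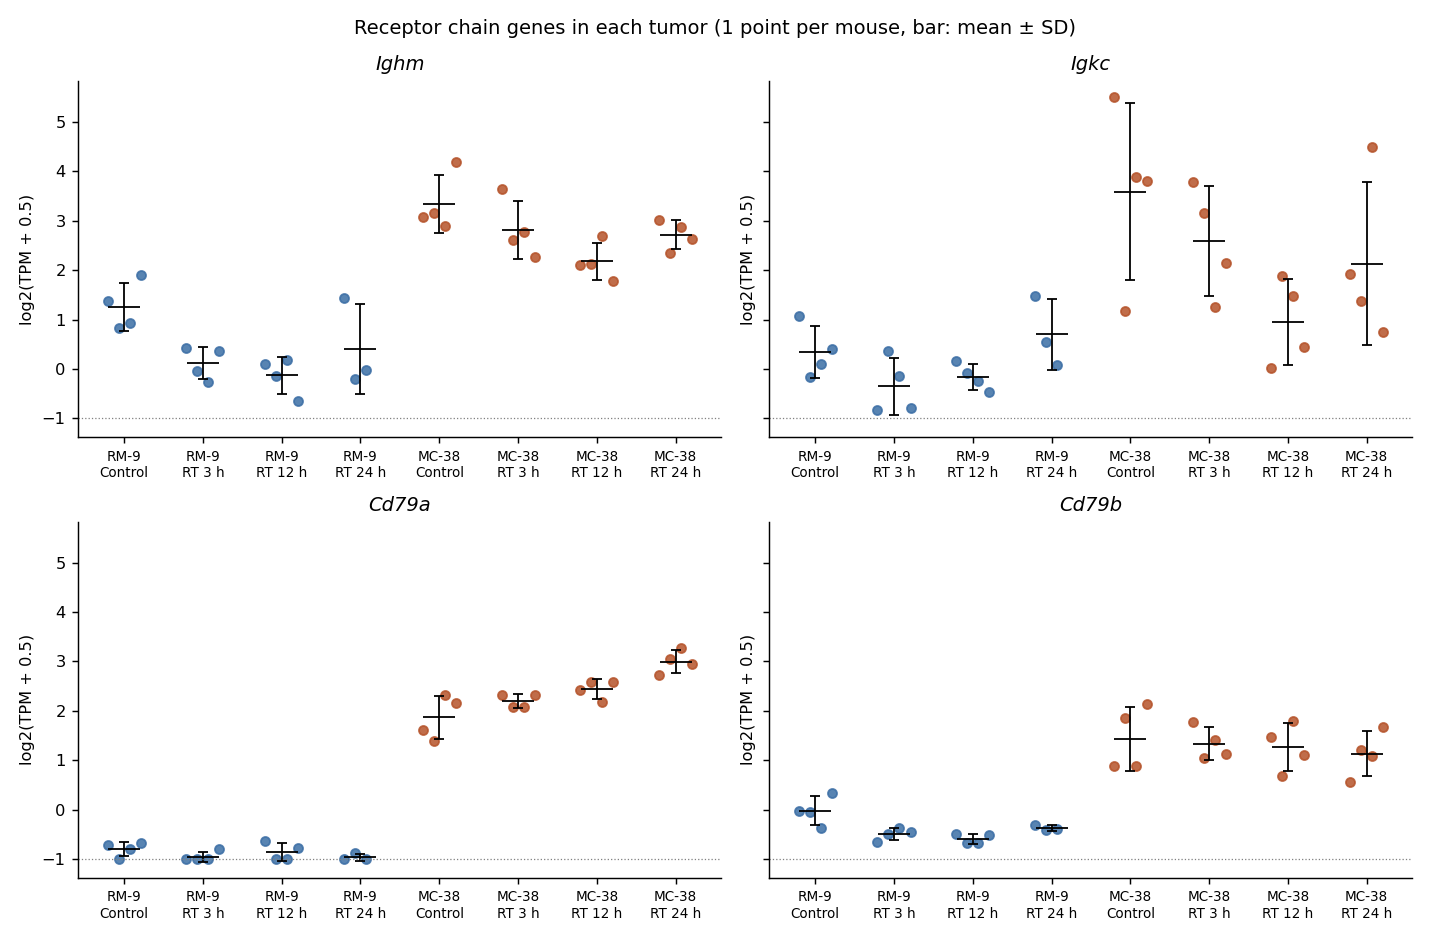
Level of Ighm, Igkc, Cd79a and Cd79b in every tumor, as log2(TPM + 0.5), by group, with 1 point per mouse and a bar for the mean ± SD; RM-9 and MC-38 have their own color. Ighm lies below every control mouse at 3 h and 12 h in RM-9 and at 12 h in MC-38, and Cd79a lies above every control mouse at 24 h in MC-38 and near the dotted line of a listed 0 in RM-9.

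Cd79a and Cd79b encode the paired signaling chains of the receptor, and of the pair only Cd79a was called after RT, in MC-38. Cd79a lies at chr7:24897381-24902197 on the plus strand (ENSMUSG00000003379). In MC-38 its TPM was 2.54, 2.11, 4.51 and 3.95 in controls. The 3 h mice had 4.52, 3.75, 3.72 and 4.5 TPM, the 12 h mice 4.88, 5.47, 4.01 and 5.53 TPM, and the 24 h mice 6.07, 7.76, 9.18 and 7.26 TPM. Every 24 h mouse was above every control mouse, and 3 of 4 were at 12 h.

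Cd79a rose, with a mean of 3.28 ± 1.13 TPM over the 4 controls and 7.57 ± 1.28 TPM over the 4 mice at 24 h (SD). The log2 change was 1.13 (SE 0.20, 95% interval 0.72 to 1.55, limma adjusted p = 0.00222), or 0.91 relative to the median gene. It was the only one of the 4 genes tested that passed at 24 h, where 13.2% of all genes were called higher and 0.548% lower. The exact two-sided permutation p was 0.0286 (0.25 after adjustment over the 35 comparisons). Leaving out any 1 mouse gave 0.97 to 1.28, and with the muscle covariate the change was 1.14 (limma adjusted p = 0.00157). At 12 h the change of 0.58 (SE 0.20, 95% interval 0.16 to 0.99) had a limma adjusted p of 0.038, which rose to 0.285 after median-ratio scaling with a change of 0.27. At 3 h it was 0.34 (SE 0.20, limma adjusted p = 0.318), where 0.0637% of all genes were called and 0 of the 4 tested here passed or had an unadjusted p under 0.05 by limma or a Dunnett p under 0.05.

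In RM-9, Cd79a was listed at 0 in 8 of 15 libraries and reached at most 0.142 TPM, too low to be tested there. Its highest value there at 24 h was 0.0448 TPM. Whether the change itself differed between the models was tested for Ighm and Igkc, which reached the minimum in both, in a fit of all 31 libraries. At 24 h the MC-38 minus RM-9 difference was 0.24 for Ighm (SE 0.49, 95% interval -0.77 to 1.25, limma adjusted p = 0.813) and -1.81 for Igkc (SE 1.04, 95% interval -3.94 to 0.33, limma adjusted p = 0.304), and neither passed, where 1.81% of 15358 genes were called higher. At 3 h 0 of these 2 passed as well, with 0.0% of all genes called, and neither had an unadjusted limma p under 0.05 at either time.

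The bases just upstream of Cd79a are shown because Cd79a was the gene that rose and because EBF1 and PAX5, the factors known to switch it on, were themselves measured. In MC-38 Pax5 was called higher after RT, as given below, whereas Ebf1 was not called at any time. The 134 bases at chr7:24897247-24897380 on the plus strand come from the RefSeq promoter table (GRCm38.p6), which held entries for Cd79a and Jchain among the 7 genes, and capitals mark GGGAAT, core letters of the known EBF binding site, at position 80.
Cd79a upstream: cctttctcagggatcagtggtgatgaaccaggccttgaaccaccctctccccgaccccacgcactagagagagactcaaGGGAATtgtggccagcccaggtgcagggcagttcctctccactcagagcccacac
The core (GGGAAT or its reverse complement ATTCCC) is found in 11.4% of the 250-base windows of 32851 promoters. Neither the immunoglobulin octamer (ATGCAAAT or ATTTGCAT, in 1.60% of promoters) nor the full palindromic EBF motif (0.779%) occurs in these letters. The 134 bases shown are fewer than the 250 of the windows, so these shares are not a background of like length.

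Cd79b lies at chr11:106311341-106314762 on the minus strand (ENSMUSG00000040592). In MC-38 its TPM was 1.34, 3.1, 1.35 and 3.89 in controls and 0.974, 1.83, 1.62 and 2.68 at 24 h, so the groups overlapped. The log2 changes were -0.10, -0.17 and -0.30 at 3, 12 and 24 h (SE 0.32 for each, limma adjusted p = 0.867, 0.685 and 0.544). In RM-9, with a mean below the 0.5 TPM minimum, controls had 0.489, 0.474, 0.274 and 0.767 TPM, the 3 h mice 0.138, 0.216, 0.278 and 0.231 TPM, and the 12 h mice 0.212, 0.127, 0.128 and 0.206 TPM. At 3 h 3 of 4 mice were below every control mouse (exact two-sided permutation p = 0.0571, 0.286 after adjustment), and at 12 h all 4 were, as a description.

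**Figure D2:**
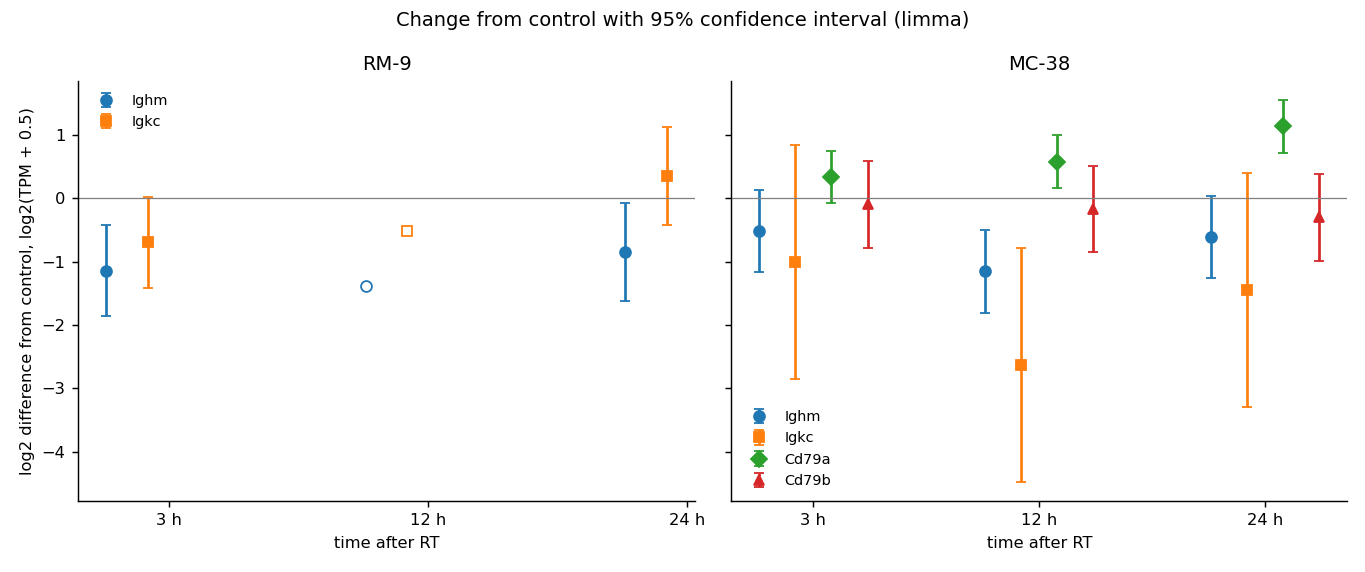
Log2 change of TPM + 0.5 against control for Ighm, Igkc, Cd79a and Cd79b at each time after RT in RM-9 and MC-38, where they were tested, with 95% intervals from limma; open symbols mark the RM-9 12 h values, which are a description without an interval. At 24 h in MC-38 the Cd79a interval of 0.72 to 1.55 is above 0 while those of Ighm, Igkc and Cd79b include 0.

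The plasma cell genes Jchain (chr5:88519809-88527891, minus strand, ENSMUSG00000067149) and Mzb1 (chr18:35647266-35649367, minus strand, ENSMUSG00000024353) were too low for the test across genes. In MC-38 Jchain had 0.676, 0.0436, 0.273 and 0.953 TPM in controls, 0.406 and 0.283 TPM in 2 of 4 mice at 3 h, 0 in all 4 mice at 12 h, and 0.134, 0, 0.331 and 0.0951 TPM at 24 h. At 12 h every mouse was thus below every control (exact two-sided permutation p = 0.0286, 0.25 after adjustment), from at most 31.8 estimated reads. Mzb1 reached 0.721 TPM in control mouse 1 and was at 0 in 9 of 16 MC-38 libraries. In RM-9 Jchain was above 0 in 4 of 15 libraries and Mzb1 in 1 of 15.

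Ms4a1 (chr19:11249675-11266241, minus strand, ENSMUSG00000024673), which overlaps an annotated antisense gene, had 0.0867, 0.0671, 0 and 0.078 TPM in MC-38 controls, 0 in all 4 mice at 12 h, and 0.129, 0, 0.0541 and 0.0544 TPM at 24 h. No order can be read from values of so few reads. None of the 35 exact comparisons of the 7 genes passed after adjustment. The smallest exact two-sided permutation p that these group sizes allow is 0.0286. A comparison could therefore pass only if many of the 35 reached that p together. The adjusted result was nearly fixed in advance by the sample size, so it does not show that the genes were unchanged.

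Before RT, MC-38 control tumors were higher than RM-9 control tumors by 3.24 for Igkc (limma adjusted p = 0.000192) and by 2.07 for Ighm (limma adjusted p = 3.82e-06) on the log2 scale. These 2 genes reached the minimum in both models. Of all genes, 64.7% were called higher and 10.7% lower in this comparison, with a median difference of 0.63. Cd79a, Cd79b and Pax5, which keeps B cell identity, reached the minimum through MC-38 alone, so their control means are a description. In MC-38 they were 3.28, 2.42 and 5.28 TPM and in RM-9 0.0778, 0.501 and 0.00719 TPM. The control difference is one of model and run together.

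Which variable segments accompanied the constant regions was read from the 185 heavy and 162 kappa segments in the tables. In RM-9 no library had a segment at 1 TPM or more. In MC-38 control mice 1 to 4 had 8, 0, 3 and 3 such segments, the 3 h and 12 h mice had 0, and the 24 h mice had 1, 0, 3 and 0. The difference from controls was -3.5 segments for both the 3 h and the 12 h group (exact two-sided permutation p = 0.143 for both, 0.214 after adjustment over the 3 comparisons) and -2.5 for the 24 h group (p = 0.371).

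A few segments made up most of the variable signal in the mice with most immunoglobulin. In control mouse 1, where the summed variable TPM was 43.4, Igkv15-103 had 10.3 TPM and took 38.4% of kappa segment TPM, and Ighv1-5 had 7.73 TPM and took 52.4% of heavy segment TPM. The same mouse had 10.7 TPM of Ighg1 and 12.8 TPM of Ighg2c, and an IgG sum of 24 TPM beside 7.99 TPM of Ighm. In RT 24 h mouse 3, Igkv2-109 had 6.78 TPM (69.4% of kappa segment TPM) and Ighv1-42 had 6.63 TPM (69% of heavy segment TPM), with 11.8 TPM of Ighg1 and an IgG sum of 14 TPM. Control mouse 3 led with Ighv1-82 at 4.2 TPM and had 3.96 TPM of Ighg2b. The leading heavy segments differed between these 3 libraries, while Ighg1 was high in both control mouse 1 and RT 24 h mouse 3. Control mouse 4, with a summed variable TPM of 10.1, led with the same heavy segment as control mouse 3, Ighv1-82 at 3.09 TPM, but with another kappa segment, Igkv9-120 at 2.64 TPM against Igkv4-62 at 2.41 TPM in control mouse 3. For control mouse 1, RT 24 h mouse 3 and control mouse 3 the muscle sums were 9830, 999 and 121 TPM, and the part of muscle in these values was not tested.

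The last 120 coding bases of the 4 leading segments are shown so that they can be told apart by eye, from 5′ to 3′. They are germline reference sequences of GENCODE M21 (GRCm38), not sequences read from these mice, and capitals mark the tyrosine, tyrosine and cysteine codons that come just before the CDR3, the part of the antibody made by joining. Ighv1-5 lies at chr12:114513330-114513807 and Ighv1-42 at chr12:114937113-114937544, both on the minus strand, and Igkv15-103 at chr6:68437440-68437925 and Igkv2-109 at chr6:68302427-68303158, both on the plus strand.
Ighv1-5: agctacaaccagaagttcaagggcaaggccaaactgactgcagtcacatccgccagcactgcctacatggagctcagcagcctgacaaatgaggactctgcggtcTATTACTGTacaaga
Ighv1-42: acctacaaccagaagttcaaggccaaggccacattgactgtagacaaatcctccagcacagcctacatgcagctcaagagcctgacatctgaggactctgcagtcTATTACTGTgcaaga
Igkv15-103: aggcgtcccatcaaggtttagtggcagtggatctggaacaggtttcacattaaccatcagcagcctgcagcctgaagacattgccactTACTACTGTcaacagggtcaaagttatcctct
Igkv2-109: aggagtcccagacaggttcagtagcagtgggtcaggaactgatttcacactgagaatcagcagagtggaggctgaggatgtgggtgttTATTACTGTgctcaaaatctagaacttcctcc
After the capitals 6 bases remain in the heavy segments and 23 in the kappa segments. The heavy pair has the same base at 104 of the 120 positions (86.7%) and the kappa pair at 80 (66.7%). Whether reads of 75 bases were split among like segments was not tested. Mutated or joined bases are not in the reference, so a segment name is uncertain.

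Of 344 segment names, 3 reached the minimum in MC-38. Ighv1-82 did so through the controls, so its values are a description. They were 3.95, 4.2 and 3.09 TPM in 3 control mice and 0 in control mouse 2, and among the irradiated mice where it led the heavy segments they were 0.463 in RT 3 h mouse 4, 0.201 in RT 12 h mouse 3 and 0.357 in RT 24 h mouse 2. The kappa share of light chain constant TPM was 89.8 ± 9.37% (SD, n = 4) in MC-38 controls and 88.7%, 89.5% and 92.9% at 3, 12 and 24 h (exact two-sided permutation p = 0.8, 0.971 and 0.686). The IgM share of heavy chain constant TPM was 63.9 ± 32.8% (SD, n = 4) in controls, from 24.1% in control mouse 1 to 92.8%, and 88.0 ± 4.93% (SD, n = 4) at 12 h (exact two-sided permutation p = 0.314). Neither share differed beyond the spread of the controls at this sample size. In RM-9 at 24 h the IgM share was 68.5% against 94.3% in controls and the kappa share 91.0% against 64.3% (exact two-sided permutation p = 0.0571 for both), on few reads.

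**Figure D3:**
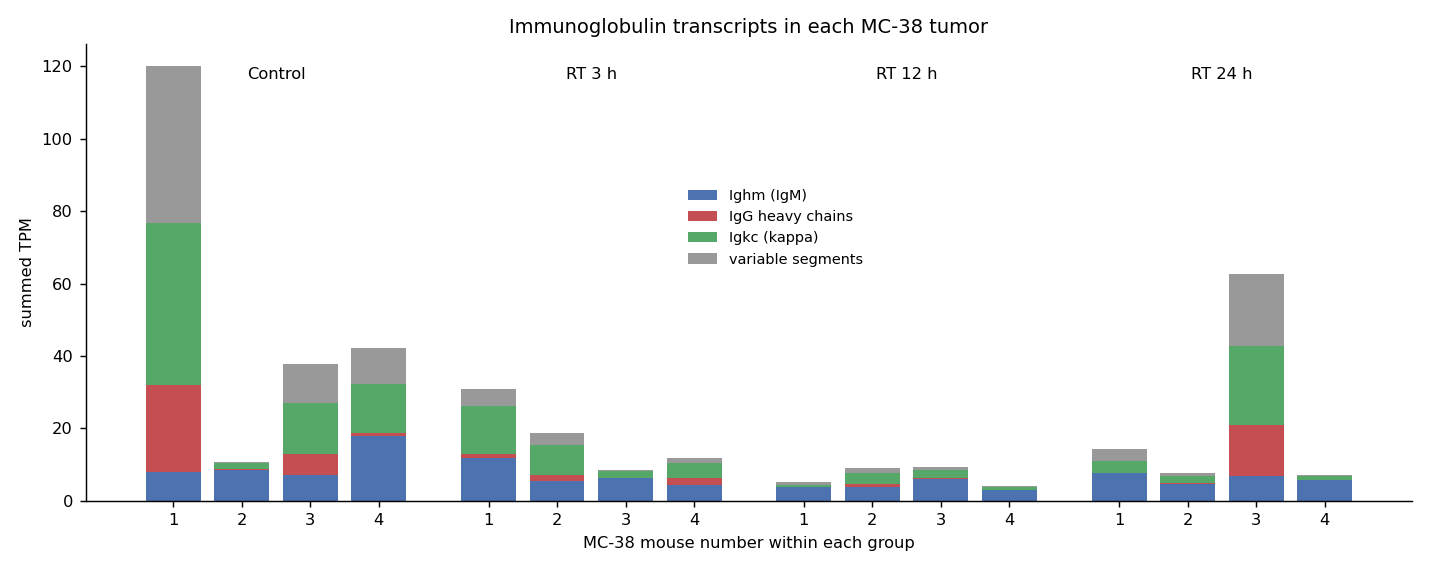
Immunoglobulin transcripts in each MC-38 tumor, with the summed TPM stacked by class (Ighm, IgG heavy chains, Igkc and variable segments), 1 bar per mouse in each group. Variable segments sum to 43.4 TPM in control mouse 1, 19.7 TPM in RT 24 h mouse 3, and 10.6 and 10.1 TPM in control mice 3 and 4. In the 3 h and 12 h mice they sum to at most 4.54 TPM.

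Genes that set B cell identity were measured beside the 7 genes in MC-38. Among 8 transcription factors, 6 were tested. Pax5 rose from 2.85, 6.57, 7.23 and 4.46 TPM in controls to 15.7, 10.4, 6.86 and 9.84 TPM at 24 h (log2 change 0.97, SE 0.26, limma adjusted p = 0.0228), with 1 overlapping mouse, and it was 0.73 after median-ratio scaling (adjusted p = 0.0495). At 12 h its change of 0.75 (limma adjusted p = 0.04) was 0.44 after that scaling and lost the call (adjusted p = 0.212). The other 5 factors tested did not pass at either time. In RM-9 Pax5 was at most 0.0814 TPM.

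**Figure D4:**
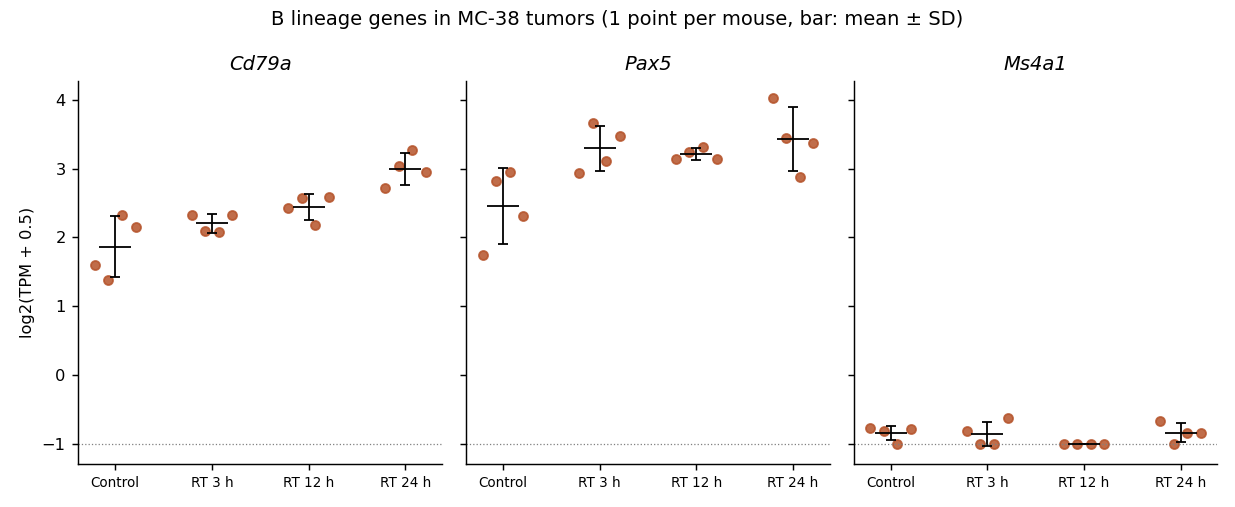
Cd79a, Pax5 and Ms4a1 in MC-38 tumors as log2(TPM + 0.5), with 1 point per mouse, a bar for the mean ± SD, and a dotted line at -1, the value of a listed 0. Cd79a and Pax5 lie well above the line in all 16 mice, while Ms4a1 is on it in 8 mice.

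Of 11 receptor signaling genes 10 were tested in MC-38, and at 24 h Bank1 and Plcg2 rose and none fell. At that time 13.2% of all genes were called higher and 0.548% lower. Bank1, a scaffold of B cell signaling, had means of 0.924 ± 0.167 TPM in controls and 3.08 ± 0.408 TPM at 24 h (SD, n = 4 each), with a log2 change of 1.33 (SE 0.16, limma adjusted p = 0.000288). Plcg2, a phospholipase used by B cells and by myeloid cells, changed by 0.67 (limma adjusted p = 0.0106). Both rose after median-ratio scaling as well, by 1.15 and 0.41. At 12 h Plcg2 was higher by 0.66 (limma adjusted p = 0.0126), whereas Ptpn6 and Pik3ap1, which many leukocytes express, fell by 0.80 and 0.66 (limma adjusted p = 0.0196 and 0.0365). Over all genes, 28.5% were called higher and 2.59% lower at 12 h. The median change of the list was -0.41 at 12 h and 0.02 at 24 h, against 0.33 and 0.22 for all genes.

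Of 14 surface receptor genes 8 were tested in MC-38. At 12 h 3 fell and none rose, against 2.59% of all genes called lower and 28.5% called higher. Cd180, a Toll-like receptor relative, fell by 0.98 (from 16.7 to 8.68 TPM, limma adjusted p = 0.0115), Tnfrsf13b by 0.92 (0.014) and Cd72 by 0.82 (from 68.7 to 40.6 TPM, 0.0366). At 24 h, where 13.2% of all genes were called higher, Cd40 rose by 0.87 (from 17.5 to 32.1 TPM, limma adjusted p = 0.00478). Tnfrsf13c, the receptor of the survival factor BAFF, had means of 0.388 TPM in controls and 1.02 TPM at 24 h, a log2 change of 0.78. Its control mean was below the 0.5 TPM minimum, which the 24 h values helped it reach, so this change is a description. Several of these genes are also made by macrophages or dendritic cells. The gene of BAFF itself, Tnfsf13b, was the 1 of 5 recruitment and survival genes tested that rose at 24 h (0.74, limma adjusted p = 0.0291), but not after median-ratio scaling (0.49, adjusted p = 0.096). No gene of these lists passed at 3 h in either model.

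Among 9 plasma cell genes 7 were tested in MC-38, where 28.5% of all genes were called higher at 12 h and 13.2% at 24 h. Ell2, an elongation factor of antibody mRNA, rose from 9.32 to 20.1 TPM at 24 h (1.07, limma adjusted p = 0.000843), Sdc1 by 0.62 (0.00582) and Slamf7 by 0.62 (0.0489), the last lost after median-ratio scaling (0.36, adjusted p = 0.238). At 12 h Ell2, Sdc1 and Xbp1 were called higher by 0.58, 0.53 and 0.32, and none of these calls held after that scaling, where Xbp1 was at -0.02. Sdc1 stood at 36.3 TPM in MC-38 controls, and it is made by many epithelial cells. Of the 12 constant region genes 6 were tested. Igha, the IgA heavy chain, had means of 0.855 TPM in controls and 0.305 TPM at 12 h. Its log2 change was -0.72, or -0.66 with the muscle covariate. The 12 h mean was below the 0.5 TPM minimum, which the control values helped the gene reach, so this change is a description. None of the 7 pre-B cell genes was high enough to test.

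In the RM-9 12 h comparison, which chose the genes, the log2 values were -0.63 for Plcg2, -0.60 for Vav1, -0.60 for Ptpn6 and -0.51 for Irf8, against a median of -0.19 for all genes. They are given without a test. These genes were named because limma called them lower there, so they do not stand for their lists. The list medians were -0.47 (receptor signaling) and -0.23 (transcription factors). After median-ratio scaling the same genes were at -0.43, -0.42, -0.39 and -0.30, with a median of 0.01 for all genes.

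Markers of other cells moved with the MC-38 values. Over all genes, 2.59% were called lower at 12 h and 0.548% at 24 h. At 12 h 6 of 9 T cell markers fell and at 24 h 4 of 9, with summed TPM of 29.1 to 40.7 in controls, 16.7 to 29.4 at 12 h and 15.1 to 26.4 at 24 h, and the T cell receptor gene Trac fell by 0.68 and by 0.93 (limma adjusted p = 0.0384 and 0.0165). Trac and Cd79a thus changed in opposite directions at 24 h. All 4 pan-leukocyte genes fell at 12 h (summed TPM of 197 to 285 in controls and 104 to 196 at 12 h) and none at 24 h. At 12 h 2 of 5 macrophage markers (169 to 232 and 119 to 185 TPM) and all 4 red blood cell genes tested (83.2 to 215 and 52.0 to 76.5 TPM) fell too. Of 6 muscle markers none passed, with a median change of -3.62 at 12 h and -0.91 at 24 h. Their part in the 12 h falls of Ighm and Igkc was not tested beyond the muscle covariate.

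Of the remaining lists, 1 of 3 plasmacytoid dendritic cell markers tested rose at 12 h and none at 24 h, with Klk1 at 0 in all 12 h mice. Over all genes, 28.5% were called higher at 12 h and 13.2% at 24 h. None of the 4 neutrophil markers tested was called in MC-38, and Ly6g was at 0 in the control, 3 h and 24 h groups. Lymph node stroma and venule genes summed to 1.45 to 11.3 TPM in controls and 7.45 to 57.2 TPM at 24 h, mostly from Ccl21a. None of the 2 tested passed. The lymph node venule genes Glycam1 and Chst4 were at 0 in every mouse at 12 h and 24 h, whereas Madcam1, Ccl19 and Cxcl13 of the same list were not. The part of included lymphoid tissue in the Cd79a rise was not tested.

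The genes whose pattern was most like the mean of the 7 genes differed by model. Over the 15 RM-9 libraries they were Ly9 (Pearson r 0.91), Sdr39u1 (0.91), Lyl1 (0.89), Ptprcap (0.88) and Arhgap9 (0.88), of which Ly9 and Ptprcap are lymphocyte surface genes. Over the 16 MC-38 libraries they were Igf2 (0.93), Myl4 (0.91), Sln (0.89), Tnni1 (0.88) and Rgs5 (0.88), and Myl4, Sln and Tnni1 encode muscle proteins. In MC-38 the r with the mean of the 7 genes was 0.93 for Igkc, 0.80 for Ighm, 0.09 for Cd79b and -0.11 for Cd79a. The mean contains these genes, so part of each r is fixed by construction, most of all for Igkc with its wide spread. Looked at alone, an addition made after the values were seen, Cd79a was most like 2310022A10Rik (0.93), Gm16026 (0.92), Lgals9 (0.92), Ms4a4d (0.91) and Gm19705 (0.91), and its r was 0.78 with Bank1, 0.47 with Pax5, -0.33 with Ighm and -0.68 with Trac. The libraries share groups, depth and scaling, so these values describe these libraries only.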

How the data were processed

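Tumor mRNA of 31 mice was sequenced as single-end 75-base reads from a stranded kit. The authors deposited 1 gene table per library with TPM, FPKM and coverage, in which FPKM is TPM times 1 constant per library and coverage is a signal of mean read depth per base. TPM, scaled by the authors to the same total in each library, was used for all results. The deposited coverage was multiplied by GENCODE M21 exonic length and divided by 75 to estimate reads, and FPKM was not used further. The submitters' processing notes name bcl2fastq 2.17 and GRCm39, whereas the gene positions match GENCODE M21 on GRCm38. For 91.1% of the 45137 shared genes the start or end is the same, so positions are given as GRCm38. The aligner is not given in the sources used here. No raw counts were used, so no count model was run.

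For each model, limma 3.58.1 (R 4.3.3) fitted the 4 groups on log2(TPM + 0.5) with an intensity trend, for genes whose mean reached 0.5 TPM, with Benjamini-Hochberg adjustment. Because of the pseudocount a fold change of a low gene is understated. A fit of 8 groups compared the models. Exact two-sided permutation tests over mice compared single values, and the smallest p was 0.0286. The spread is between mice of 1 experiment per model. Shares and sums were computed with Python 3.11.15, pandas 2.3.3, numpy 2.4.6 and scipy 1.17.1, and figures were drawn with matplotlib 3.10.9. Scripts were tested on simulated data. Sequences came from GENCODE M21 transcripts and the RefSeq promoter table.

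The 7 genes and all lists were chosen with earlier results of these data known. Named were the 7 genes, every gene of the B cell and immunoglobulin lists with an adjusted p under 0.05 (at most 4 per list and comparison), and the 5 genes most like the mean of the 7 in each model, while other genes were named after their values were seen. Mouse numbers are shared between groups but denote different mice, so no block was used. Alternatives were other pseudocounts, scalings and filters, fewer groups, no trend, a replicate block, Dunnett's test and leaving out each mouse.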

Additional observations from a re-analysis of the deposited data

Results flagged for a closer look

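On the TPM scale, 1 mouse lay far from the other 3 of its group in 2 of 22 groups of 4 mice screened by Dixon's test. For Ighm in MC-38 controls it was mouse 4 at 17.8 TPM, and for Igkc at 24 h in MC-38 it was mouse 3 at 22.0 TPM. On the log2(TPM + 0.5) scale, on which the genes were tested, 0 of the 22 groups held such a mouse. Chance marks about 1 in 20 groups. Without control mouse 4 the MC-38 12 h change of Ighm was -0.869 on the log2 scale and lost its call.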

How the results depend on the processing

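The Cd79a rise at 24 h in MC-38 kept its call under every alternative run that kept the gene (0.897 to 1.23). The number of the 7 genes called changed as follows. In MC-38 at 12 h it went from 3 to 1 with no filter on low values, with only the 2 compared groups and with Dunnett's test, and to 0 with the muscle covariate, which was added after the values were seen. It was 2 with median-ratio scaling, without mitochondrially encoded genes and with a minimum mean TPM of 5. With a minimum mean TPM of 5, which drops most of the 7 genes, it was 0 in MC-38 at 24 h. In RM-9 at 3 h it went from 0 to 1 with Dunnett's test. Counts over all genes moved more: in MC-38 at 12 h 4875 genes were called, and 915 to 5676 over the other settings and 1443 to 7292 with each mouse left out; at 24 h 2159, 318 to 2844 and 1070 to 3528; in RM-9 at 12 h 1173, 0 to 1368 and 0 to 1573. Signs turned for values near 0 that passed no test. The model difference of Igkc at 3 h was 0.289 with a pseudocount of 0.1. The cause was not tested.

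With each mouse left out, the number called ranged from 0 to 3 in MC-38 at 12 h and moved in no other comparison. Ranges that crossed 0 were -0.285 to 0.133 (Cd79b, MC-38 3 h), -0.353 to 0.0651 (Cd79b, MC-38 12 h), -0.0373 to 0.666 (Igkc, RM-9 24 h), and for model differences -1.11 to 0.335 (Igkc, 3 h) and -0.0615 to 0.76 (Ighm, 24 h). In percentage points they were, for the kappa share, -5.59 to 1.71, -4.81 to 2.70 and -1.41 to 5.35 in MC-38 at 3, 12 and 24 h and -23.2 to 2.51 and -0.514 to 17.6 in RM-9 at 3 h and 12 h, and for the IgM share -3.77 to 19.1 and -0.193 to 28.0 in MC-38 at 3 h and 24 h.

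The replicate block, with the mouse number as a term, changed no count of the 7 genes. Same-numbered mice did not deviate together (r from -0.389 to 0.317 over 21 pairs in RM-9 and from -0.483 to 0.554 over 24 pairs in MC-38), and 3 of 15 and 4 of 16 libraries correlated best with their own number, so the numbers pair no mice. Ms4a1, Jchain and Mzb1 rest on at most 7.99, 31.8 and 22.7 estimated reads per library.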
